A study of Homo sapiens with 24 samples.

Results

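ETS factors are transcription factors that share a DNA-binding domain, the ETS domain, which reads a short core of GGAA. The genes described here are ELF3, EHF, ELF1, ELF4, ETS1, ETS2, ELK3, ETV4, ETV5 and ETV6. Each was taken from the probe sets that the array's gene table assigns to that symbol alone, and 9 of the 10 had such a probe set, 1 each, among 18417 genes covered in this way. The only probe set listing ETV6 also lists another gene, so ETV6 is not described.

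The cells were MCF10A, a non-tumorigenic line of human mammary epithelium in wide laboratory use. Transcripts were measured on Affymetrix Human Gene 1.0 ST arrays. Cells were transfected with an oligonucleotide directed at miR-20a (si-miR-20a), with one against miR-671-5p (called si-miR-671) or with a non-targeting control, all with the reagent Oligofectamine, and were then sampled after 30, 60 and 120 min of EGF and at 0 min. This gave 12 groups of 2 replicates, or 24 arrays, and the groups differed in no other labelled respect: the growth medium of all of them contained EGF, insulin, cholera toxin, hydrocortisone and horse serum. The replicates are called biological in the labels, but the sources used here do not say whether they came from separate cultures or transfections, so the errors measure the spread between these arrays, which may be partly technical. No arrays without EGF were taken at the later times, so EGF cannot be told apart from time or handling. The mature miRNAs were not measured here.

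EGF activates its receptor on epithelial cells and, through the RAS and ERK kinases, changes the activity of several ETS factors. ETS1 and ETS2 are phosphorylated by ERK and then activate transcription more strongly. ELK3 is a ternary complex factor, which binds with SRF at serum response elements, and ETV4 and ETV5 belong to the PEA3 group, whose genes often respond to ERK signalling. ELF3 and EHF are the epithelium-specific members, known for roles in the differentiation of glandular and barrier epithelia. ELF1 and ELF4 are other members of the family that are best known from blood cells.

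The oligonucleotides were directed at the miRNAs whose mature forms are printed here, to show which miRNA each oligonucleotide was directed at. Capitals mark the seed, bases 2 to 8. The sequences are RefSeq's, placed on GRCh38.p14 at chr13:91351072-91351094 for miR-20a and at chr7:151238449-151238471 for miR-671-5p, both on the plus strand.
hsa-miR-20a-5p: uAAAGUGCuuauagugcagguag
hsa-miR-671-5p: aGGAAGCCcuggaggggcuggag
The 2 seeds differ. Seed matches in the transcripts were not searched here.

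ELF3 had the widest range of all 9 genes, and its promoter is therefore shown, from RefSeq and GRCh38.p14, plus strand, chr1:202010337-202010636, covering 250 bases before and 50 after the annotated start. Capitals mark, in order, an ETS core on the minus strand (TTCC), an NF-kappaB consensus match (GGAAATCCCC) and a TATA box (TATAAA). The NF-kappaB match is on the minus strand, and its letters as printed begin with an ETS core.
ELF3 promoter: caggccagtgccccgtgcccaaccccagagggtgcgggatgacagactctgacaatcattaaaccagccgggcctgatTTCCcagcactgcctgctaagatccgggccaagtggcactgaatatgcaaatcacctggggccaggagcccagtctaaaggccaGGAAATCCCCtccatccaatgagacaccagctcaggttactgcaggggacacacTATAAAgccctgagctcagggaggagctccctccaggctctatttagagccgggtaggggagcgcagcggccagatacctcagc
Motifs were searched on both strands in windows of 300 bases, of which 6 of the 9 genes had 13 (ETS1, ETV4 and ETV5 were not matched). The ETS core GGAA lay in 11 of the 13 windows, against 95.5% of all 35116 promoter windows. The NF-kappaB consensus lay in 2, 1 of ELF3 and 1 of ETS2, against 11.3% of all windows, and TATAAA lay in 2, of ELF3 and ELF1, against 11.5%. The longer ETS motif CCGGAA lay in 0 of the 13, against 17.2% of all windows, and the AP-1 motif TGANTCA in 1, of ELF4, against 7.7%. These matches describe the letters of the windows and are not binding sites shown by these data.

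Array medians lay at 6.56 to 6.57 log2 units, and replicates of a group correlated over probe sets at 0.973 to 0.992. All 6 measured basal epithelial markers of 10 listed lay above the median of all values, 6.57, with KRT5 at a mean of 12.67, and their mean per array ran from 11.18 to 11.44. Of the luminal markers 7 of 10 lay above it (KRT18 at 11.18, KIT at 3.78), with array means of 7.20 to 7.50. Of the mesenchymal markers 5 of 10 did (VIM at 11.47, LUM at 3.66), with array means of 6.59 to 6.97, and of the blood and endothelial markers 2 of 9 (CDH5 at 10.25, PTPRC at 4.28), with 6.17 to 6.47. The difference between si-miR-671 and control was uneven over time. Of 19460 probe sets, 2.81% passed the test over 0 and 30 min and 15.4% over 60 and 120 min with si-miR-671 against control, and 12% and 16.7% did with si-miR-20a against control. Results averaged over the transfections are therefore also given without the si-miR-671 arrays of all 4 times where that changes a call.

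ELF3 fell at 120 min of EGF in all transfections, and it was lower with si-miR-20a than with control at every time. Its log2 level with si-miR-20a was 7.76 and 7.60 at 0 min, 7.23 and 7.36 at 30 min, 7.45 and 7.0 at 60 min and 5.68 and 5.06 at 120 min. With si-miR-671 it was 8.19 and 8.25 at 0 min, 8.43 and 8.38 at 30 min, 7.34 and 7.23 at 60 min and 6.07 and 6.20 at 120 min. With control it was 8.69 and 8.51 at 0 min, 8.77 and 8.58 at 30 min, 8.35 and 8.30 at 60 min and 5.99 and 6.21 at 120 min. The 120 min arrays lay below every array of the earlier times in each transfection, and the si-miR-20a arrays lay below the control arrays at each time without overlap. Here and below, whether arrays overlapped is a description, and the share of all probe sets without overlap was not counted.

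**Figure D1:**
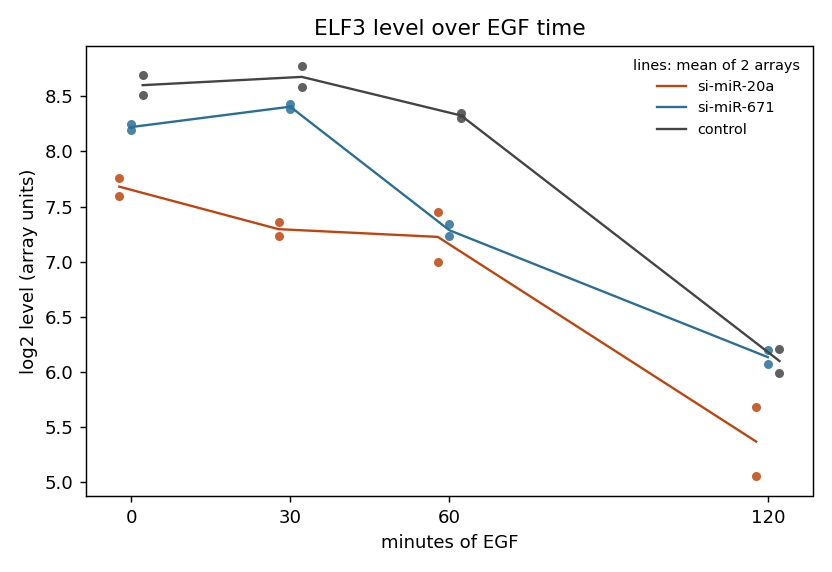
ELF3 level (log2 array units) against minutes of EGF, with 1 point per array, offset slightly sideways by transfection, and lines through the mean of 2 arrays. The si-miR-20a points lie below the control points at every time, and all points at 120 min lie at 6.21 or lower.

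In order of the 12 group means, ELF3 was highest in control at 30 min (8.68) and control at 0 min (8.60), whose arrays overlapped. Next came si-miR-671 at 30 min (8.40), control at 60 min (8.33) and si-miR-671 at 0 min (8.22), neighbours in that order without overlap. The order went on with si-miR-20a at 0 min (7.68), then at 30 min (7.30), si-miR-671 at 60 min (7.29) and si-miR-20a at 60 min (7.23), of which the last 3 overlapped as neighbours. The lowest were si-miR-671 at 120 min (6.13) and control at 120 min (6.10), which overlapped, and si-miR-20a at 120 min (5.37), which lay below both. With 2 arrays a group, this order is a description. The span of the group means was 3.31 for ELF3, and the next widest was that of EHF, 0.85.

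The EGF response averaged over the 3 transfections compares 6 arrays with 6, in limma's fit over all 24 arrays, with p-values adjusted over the 19460 probe sets that carry 1 symbol and a call at an adjusted p under 0.05. Errors are standard errors of that fit, and differences are on the log2 scale. In bulk RNA, less RNA per cell and fewer cells that express a gene cannot be told apart.

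At 30 min ETS2 was the 1 gene of the 9 that rose, and 0 fell, where 0.725% of all probe sets were called higher and 0.0411% lower. At 60 min ETS2 rose and ELF3 fell, 1 of 9 in each direction, where 2.16% of all probe sets were called higher and 0.493% lower. At 120 min 3 of 9 rose (ETS1, ETV4 and ETS2) and 2 fell (ELF3 and EHF), where 7.13% of all probe sets were called higher and 6.27% lower. ELF1, ELF4, ELK3 and ETV5 were not called at any of these times. The median difference of the 9 genes at 120 min was 0.19, against 0.0079 for all probe sets.

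**Figure D2:**
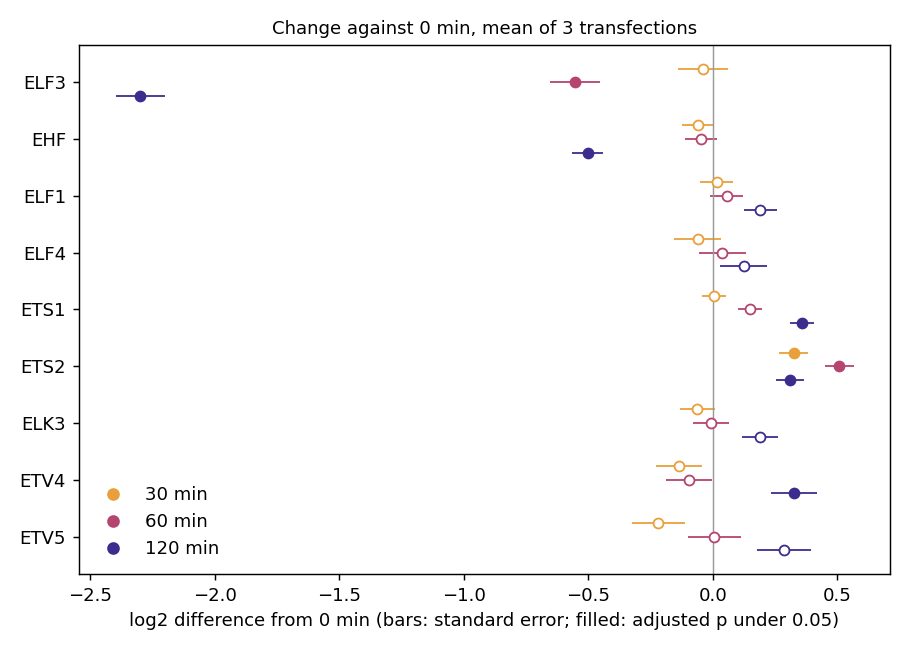
Difference from 0 min (log2, x axis) of each of the 9 genes at 30, 60 and 120 min of EGF, averaged over the 3 transfections, with bars of 1 standard error and filled points for an adjusted p under 0.05. ELF3 at 120 min lies far to the left of all other points, and ETS2 has filled points at all 3 times.

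In the mean over transfections the decline of ELF3 was steepest between 60 and 120 min. With si-miR-671 the group mean went from 8.40 at 30 min to 7.29 at 60 min and 6.13 at 120 min. There the fall per minute was faster between 30 and 60 min. At 120 min the mean over transfections was 5.87, against 8.17 at 0 min, a difference of -2.30 ± 0.10 (SE, 6 arrays against 6, adjusted p 4.6e-10 in limma), to 0.203 of the level at 0 min. All 6 arrays at 120 min lay below the median of all values, 6.57, and no background measure was among the values used here, so this fold may be compressed. By the size of the difference it ranked 9 of the 19460 probe sets. Between 60 and 120 min the difference was -1.74 ± 0.10 (adjusted p 3.3e-08 in limma), and between 30 and 60 min it was -0.51 ± 0.10 (adjusted p 0.02 in limma), where 0.113% of all probe sets were called lower. The earlier step was called in this fit, but not without the si-miR-671 arrays, where it was -0.21 with an adjusted p of 0.601, nor without any 1 of 7 arrays (adjusted p up to 0.0806).

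In control alone ELF3 differed by -2.50 ± 0.17 at 120 min from 0 min (2 arrays against 2, adjusted p 4.4e-07 in limma). With si-miR-20a the difference was -2.31 ± 0.17 (adjusted p 9e-07) and with si-miR-671 it was -2.09 ± 0.17 (adjusted p 2.1e-06). At 60 min ELF3 was called lower than at 0 min with si-miR-671, by -0.93 ± 0.17 (adjusted p 0.0092 in limma), where 0.771% of all probe sets were called lower. This call was lost without any 1 of the arrays compared, where the difference ran from -0.99 to -0.88. The differences of -0.45 with si-miR-20a and -0.28 in control were not called. The 60 min arrays lay below the 0 min arrays in each of the 3 transfections. Averaged over them, the difference of -0.55 ± 0.10 at 60 min had an adjusted p of 0.0046 in limma, and without the si-miR-671 arrays it was -0.37 with an adjusted p of 0.307.

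EHF, the closest relative of ELF3 among the 9 and the other epithelium-specific factor, fell at 120 min by a smaller step. At 120 min its level was 8.40 and 8.71 with si-miR-20a, 8.52 and 8.79 with si-miR-671 and 8.31 and 8.29 with control. At 0 min it was 8.95 and 8.81 with si-miR-20a, 9.0 and 8.99 with si-miR-671 and 9.16 and 9.12 with control. The arrays at 120 min lay below those at 0 min without overlap in all 3 transfections, and the control arrays were the lowest at 120 min and the highest at 0 min. Averaged over transfections the difference was -0.50 ± 0.06 (adjusted p 5.5e-05 in limma). In control it was -0.84 ± 0.11 (adjusted p 0.00028). With si-miR-20a it was -0.33 ± 0.11 and with si-miR-671 -0.34 ± 0.11, each with an adjusted p of 0.087 in limma. At 60 min the mean difference of EHF from 0 min was -0.05, and between 60 and 120 min it was -0.45 ± 0.06 (adjusted p 0.00035 in limma). The transfections were not alike in this. At 60 min EHF had 9.03 and 8.90 with si-miR-20a, 8.76 and 8.77 with si-miR-671 and 9.21 and 9.08 with control. With si-miR-671 these arrays already lay below those at 0 min and overlapped those at 120 min, while in the other transfections they overlapped those at 0 min and lay above those at 120 min. Between these times 2 of the 9 genes fell and 2 rose, where 2.3% of all probe sets were called lower and 2.62% higher. The 2 that rose were ETV4 (0.42 ± 0.09, adjusted p 0.013 in limma) and ETS1 (0.21 ± 0.05, adjusted p 0.02), and neither was called without the si-miR-671 arrays (adjusted p 0.0696 and 0.09). ETS1 also lost this call without any 1 of 7 arrays.

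ETS2, a widely expressed ERK target, moved first and in the opposite direction. At 30 min it had 9.94 and 9.88 with si-miR-20a, 10.18 and 10.03 with si-miR-671 and 10.11 and 10.08 with control. At 60 min it had 10.27 and 10.16 with si-miR-20a, 10.29 and 10.19 with si-miR-671 and 10.23 and 10.19 with control. At 0 min it had 9.70 and 9.60 with si-miR-20a, 9.68 and 9.61 with si-miR-671 and 9.85 and 9.82 with control. All arrays at 30 and 60 min lay above the 0 min arrays of their own transfection. Averaged over transfections ETS2 rose by 0.33 ± 0.06 at 30 min (adjusted p 0.0096 in limma) and by 0.51 ± 0.06 at 60 min (adjusted p 5.1e-05).

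At 120 min ETS2 was at 9.93 and 9.99 with si-miR-20a, 10.04 and 10.34 with si-miR-671 and 10.01 and 9.81 with control. In control these arrays overlapped those at 0 min, and in the other transfections they lay above them. The mean over transfections was still higher than at 0 min by 0.31 ± 0.06 (adjusted p 0.002 in limma). Without the si-miR-671 arrays the rises at 30 and 120 min were not called (0.26, adjusted p 0.329, and 0.19, adjusted p 0.114), and the rise at 60 min was.

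ETS1, the close relative of ETS2, rose later. At 120 min it had 9.59 and 9.80 with si-miR-20a, 9.46 and 9.42 with si-miR-671 and 9.48 and 9.59 with control. At 0 min it had 9.14 and 9.17 with si-miR-20a, 9.0 and 9.21 with si-miR-671 and 9.36 and 9.30 with control. The arrays did not overlap in any transfection, and the gap was widest with si-miR-20a. The mean difference was 0.36 ± 0.05 (adjusted p 0.00012 in limma), and it was 0.37 with an adjusted p of 0.00576 without the si-miR-671 arrays. By transfection it was 0.54 ± 0.08 with si-miR-20a (adjusted p 0.0011), 0.33 ± 0.08 with si-miR-671 (adjusted p 0.029, and 0.276 at most when 1 array was left out) and 0.20 ± 0.08 in control, where it was not called (adjusted p 0.32).

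ETV4 and ETV5, the PEA3 group genes, had their highest mean over transfections at 120 min. ETV4 had 6.33 and 6.31 with si-miR-20a, 6.41 and 6.68 with si-miR-671 and 6.43 and 5.99 with control at 120 min. At 0 min it had 6.13 and 6.06 with si-miR-20a, 5.86 and 6.11 with si-miR-671 and 6.13 and 5.93 with control. The control arrays overlapped, and the others did not. ETV4 rose by 0.33 ± 0.09 in the mean over transfections (adjusted p 0.029 in limma). The call was lost without 7 of the 24 arrays taken singly (adjusted p up to 0.0908), without the si-miR-671 arrays (0.21, adjusted p 0.347) and in a fit of only the arrays compared (adjusted p 0.086). ETV4, whose 24 arrays ran from 5.68 to 6.68, was the 1 gene of the 9 that a filter on dim probe sets removed.

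ETV5 had 6.96 and 6.93 with si-miR-20a, 6.69 and 6.67 with si-miR-671 and 7.01 and 6.93 with control at 120 min. At 0 min it had 6.69 and 6.50 with si-miR-20a, 6.69 and 6.68 with si-miR-671 and 6.54 and 6.37 with control. The si-miR-671 arrays overlapped, and in the other transfections all arrays at 120 min were the higher ones. The mean difference of 0.29 ± 0.11 was not called (adjusted p 0.097 in limma), and without the si-miR-671 arrays it was 0.43 with an adjusted p of 0.0236.

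ELF1, ELF4 and ELK3 did not pass the test for EGF in the mean over transfections. ELF1 was the least variable of the 9, with group means that spanned 0.33 log2 units and arrays between 9.66 and 10.31. Its difference at 120 min was 0.19 ± 0.07 (adjusted p 0.066 in limma). The 120 min arrays of ELF1 lay above its 0 min arrays without overlap in each transfection. In limma ELF1 was called at 120 min without dim probe sets (adjusted p 0.0383) and with trend and robust eBayes (0.0305). At the same time ELK3 differed by 0.19 ± 0.07 (adjusted p 0.094 in limma) and ELF4 by 0.12 ± 0.10 (adjusted p 0.47).

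**Figure D3:**
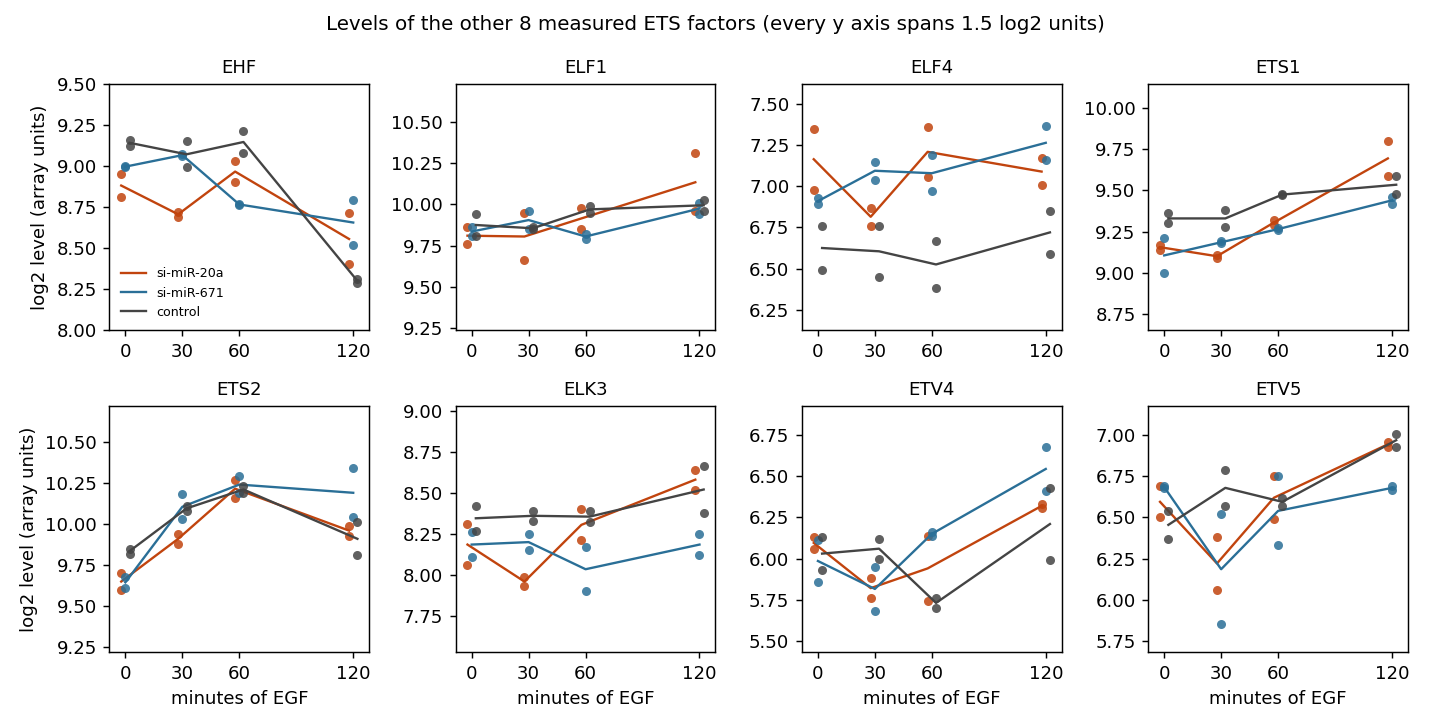
Levels (log2 array units) of the 8 other genes against minutes of EGF, with 1 point per array, lines through group means and y axes that all span 1.5 units. EHF is lowest at 120 min, ETS2 has its highest group mean at 60 min in each transfection, and the control points of ELF4 lie low throughout.

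In the control transfection alone, where 2 arrays are set against 2, 0 of the 9 genes were called at 30 min or 60 min by limma, and 1 at each time had an unadjusted p under 0.05. Of all probe sets 0.334% were called at 30 min and 0.791% at 60 min in either direction. These shares are for the adjusted p, and the share under the unadjusted threshold was not computed. At 120 min ELF3 and EHF fell, 2 of 9, and 0 rose, where 0.791% of all probe sets were called lower and 2.17% higher. With si-miR-20a at 120 min ELF3 fell and ETS1 rose, 1 of 9 each, where 3.14% were called lower and 4.49% higher. With si-miR-671 at 120 min ELF3 fell and ETS1 and ETS2 rose, where 2.73% were called lower and 3.22% higher, and the ETS2 call was lost without either of 2 arrays (adjusted p up to 0.056). These 3 comparisons use different arrays, and ELF3 was the 1 gene of the 9 called in each. Their errors come from a spread shared by the 12 groups. In fits of only the 4 arrays compared, ELF3 kept its call in control and with si-miR-20a, while ELF3 with si-miR-671 (adjusted p 0.0801), EHF in control (0.0914), ETS1 (0.416 with si-miR-20a, 0.31 with si-miR-671) and ETS2 (0.237) lost theirs.

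A moderated F test in limma, taken jointly over the 3 times, asked whether either oligonucleotide altered how the genes responded to EGF. For si-miR-20a minus control 0 of the 9 genes were called, where 0.0154% of all probe sets were called, and 2 of the 9 had an unadjusted p under 0.05. For si-miR-671 minus control 0 were called, where 0.0514% of all probe sets were, and 4 had an unadjusted p under 0.05. The share of all probe sets under the unadjusted threshold was not computed, so the unadjusted counts have no background beside them. EHF had the smallest adjusted p of the 9 in both, 0.79 and 0.26. Its change at 120 min was less negative than in control by 0.51 ± 0.15 with si-miR-20a and by 0.50 ± 0.15 with si-miR-671 (adjusted p 0.47 and 0.42 for that time alone). For ELF3 at 60 min, the response with si-miR-671 minus that in control was -0.66 ± 0.24 (adjusted p 0.35 in limma).

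ETV5 gave the largest departure at 30 min. Its arrays were 6.38 and 6.06 with si-miR-20a, 5.85 and 6.52 with si-miR-671 and 6.79 and 6.57 with control at that time. They lay below the 0 min arrays with both miRNA-directed oligonucleotides and above them with control. The response differed from that in control by -0.60 ± 0.26 with si-miR-20a and by -0.72 ± 0.26 with si-miR-671, and neither was called (adjusted p 1 in limma). The replicates with si-miR-671 were far apart, and the comparisons share the control arrays.

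Transfection against control, averaged over the 4 times, compares 8 arrays with 8. With si-miR-20a 1 of the 9 genes was lower (ELF3) and 1 higher (ELF4), where 12.7% of all probe sets were called lower and 11.9% higher, so the number called was not above the background. With si-miR-671 3 of 9 were lower (ELF3, ELK3 and ETS1) and 1 was higher (ELF4), where 7.7% of all probe sets were called lower and 6.79% higher. The comparisons share the 8 control arrays, so the values are given side by side.

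ELF3 had the largest difference of the 9 with si-miR-20a. Its mean over times was 6.89 with si-miR-20a, against 7.93 with control, a difference of -1.03 ± 0.09 (adjusted p 7.9e-07 in limma) that ranked 54 of the 19460 probe sets by size. By time the difference was -0.92 ± 0.17 at 0 min, -1.38 ± 0.17 at 30 min, -1.10 ± 0.17 at 60 min and -0.73 ± 0.17 at 120 min, with adjusted p of 0.0079, 0.00038, 0.0016 and 0.016 in limma. At these times 1.83%, 3.61%, 2.9% and 4.86% of all probe sets were called lower. ELF3 was thus lower at 0 min of EGF as well. The calls at 30 and 60 min did not depend on any single array, while that at 0 min was lost without control replicate 1 (adjusted p 0.0864) or si-miR-20a replicate 2 (0.0934) of that time. That at 120 min was lost without control replicate 2 (adjusted p 0.106) or si-miR-20a replicate 2 of that time (-0.42, adjusted p 0.219), whose level of 5.06 was the lowest of all 24. It was also lost without the si-miR-671 arrays, which add to the estimate of the spread (adjusted p 0.0591).

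With si-miR-671 the mean of ELF3 was 7.51, against 7.93 with control, a difference of -0.42 ± 0.09 (adjusted p 0.0041 in limma). It was uneven over time. At 60 min the difference was -1.04 ± 0.17 (adjusted p 0.0019, where 5.09% of all probe sets were called lower), with arrays at 7.34 and 7.23 against 8.35 and 8.30 in control. EHF was also called lower with si-miR-671 at that time (-0.38 ± 0.11, adjusted p 0.043 in limma), 2 of the 9 genes in all, but lost the call without any 1 of 14 arrays and with the replicate number as a block (adjusted p 0.0518). At 120 min the difference of ELF3 was 0.03 ± 0.17 (adjusted p 0.95) and the arrays overlapped. At 0 and 30 min together it was -0.33 ± 0.12 and was not called (adjusted p 0.22).

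Set directly against each other over the 4 times, si-miR-20a and si-miR-671 differed in 1 of the 9 genes. ELF3 was lower with si-miR-20a, a difference of -0.62 ± 0.09 (adjusted p 0.0012 in limma), where 2.16% of all probe sets were called lower, and 0 of 9 were higher, where 2.38% were. This difference ranked 25 of 19460 by size, and over 60 and 120 min alone it was -0.41 and not called (adjusted p 0.15). For ELF4 it was -0.02 ± 0.08 (adjusted p 0.94).

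ELF4, which is known for roles in immune cells and in cell cycle entry, was the gene that was higher with both oligonucleotides. With si-miR-20a its arrays were 7.35 and 6.98 at 0 min, 6.87 and 6.76 at 30 min, 7.36 and 7.06 at 60 min and 7.17 and 7.01 at 120 min. With si-miR-671 they were 6.89 and 6.93 at 0 min, 7.04 and 7.15 at 30 min, 6.97 and 7.19 at 60 min and 7.16 and 7.37 at 120 min. With control they were 6.76 and 6.49 at 0 min, 6.76 and 6.45 at 30 min, 6.38 and 6.67 at 60 min and 6.85 and 6.59 at 120 min. No control array exceeded 6.85, and the si-miR-671 arrays lay above the control arrays at each time, as did the si-miR-20a arrays at all times but 30 min, where they overlapped. The mean difference was 0.45 ± 0.08 with si-miR-20a (adjusted p 0.00091 in limma) and 0.47 ± 0.08 with si-miR-671 (adjusted p 0.0012). At single times only the 60 min value with si-miR-20a was called among these 8 comparisons (0.68 ± 0.17, adjusted p 0.024, where 3.29% of all probe sets were called higher), and it was lost when either of 2 arrays was left out (adjusted p 0.202 and 0.185) or the si-miR-671 arrays were (0.0707).

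**Figure D4:**
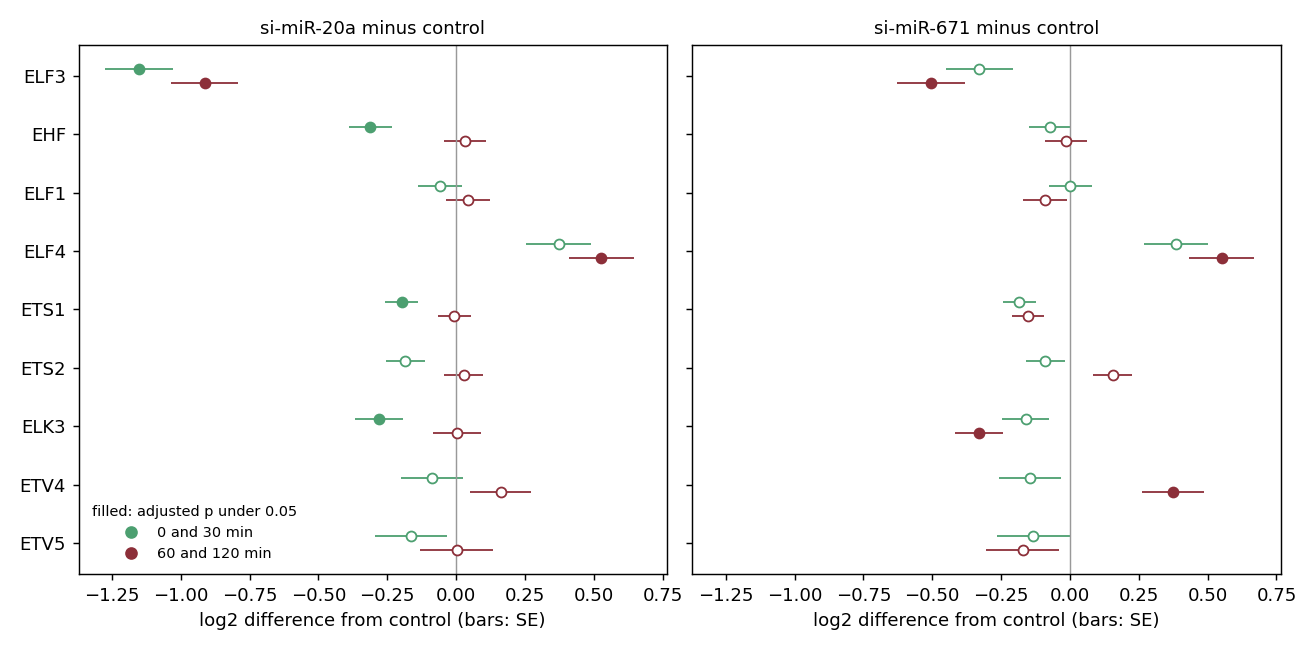
Difference from control (log2, x axis) of each of the 9 genes with si-miR-20a and with si-miR-671, over 0 and 30 min and over 60 and 120 min, with bars of 1 standard error and filled points for an adjusted p under 0.05. ELF3 lies lowest with si-miR-20a both early and late in the time course, ELF4 lies to the right in both panels, and with si-miR-671 no point of 0 and 30 min is filled.

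Early and late times were also compared separately, because the share of probe sets called with si-miR-671 differed between them. Over 0 and 30 min 0 of the 9 genes were called with si-miR-671 by limma, where 2.81% of all probe sets were called in either direction. An unadjusted p under 0.05 was found for 3 of the 9, and the share of all probe sets under that threshold was not computed. Over 60 and 120 min ELF3 (-0.50, adjusted p 0.011) and ELK3 (-0.33, adjusted p 0.018) were lower and ELF4 (0.55, adjusted p 0.0048) and ETV4 (0.37, adjusted p 0.035) were higher, 2 of 9 in each direction, where 8.37% were called lower and 7.04% higher. The ETV4 call was lost without any 1 of 6 arrays and the ELK3 call without any 1 of 4.

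With si-miR-20a more of the genes were called over the early times than over the late ones. Over 0 and 30 min ELF3 (-1.15), EHF (-0.31), ELK3 (-0.28) and ETS1 (-0.20) were lower, 4 of 9, and 0 were higher, where 7.17% of all probe sets were called lower and 4.79% higher. The adjusted p of the last 3 were 0.016, 0.049 and 0.044 in limma, EHF lost the call without any 1 of 4 arrays, and ELK3 and ETS1 lost it without most single arrays (17 and 18 of 24) and without the si-miR-671 arrays (0.0794 and 0.0892). Over 60 and 120 min ELF3 (-0.91, adjusted p 0.00015) was lower and ELF4 (0.53, adjusted p 0.006) was higher, 1 of 9 each, where 7.75% were called lower and 8.95% higher. The mean difference of EHF over these late times, 0.03, joined values of -0.19 at 60 min, where the si-miR-20a arrays lay below the control arrays, and 0.25 at 120 min, where they lay above them, and neither was called (adjusted p 0.39 and 0.18).

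ELK3 and ETS1 were lower with si-miR-671 in the mean over times, by values of -0.25 ± 0.06 (adjusted p 0.013) and -0.17 ± 0.04 (adjusted p 0.014 in limma). ELK3 had 8.26 and 8.11 at 0 min, 8.15 and 8.25 at 30 min, 7.90 and 8.17 at 60 min and 8.25 and 8.12 at 120 min with si-miR-671. With control it had 8.42 and 8.27 at 0 min, 8.39 and 8.33 at 30 min, 8.32 and 8.39 at 60 min and 8.38 and 8.66 at 120 min. The si-miR-671 arrays lay below the control arrays of the same time at all 4 times for both genes. Over 0 and 30 min alone neither was called (adjusted p 0.48 for ELK3 and 0.148 for ETS1 in limma). ETS1 was not called over 60 and 120 min either (adjusted p 0.106). With si-miR-20a the mean differences of -0.14 ± 0.06 for ELK3 and -0.10 ± 0.04 for ETS1 were not called (adjusted p 0.12 and 0.096). ELF1, ETS2 and ETV5 were not called in either comparison over all times, with differences between -0.15 and 0.03.

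Across the 12 group means, which share arrays of 1 line and the same times, ELF3 followed EHF most closely among the members (Pearson r 0.89). Its lowest correlation with a member was that with ETV4 (-0.71). ETS1 followed ELF1 (0.91) and ELK3 (0.82). These correlations are descriptions over 12 points.

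Among 5604 genes whose group means had an SD of at least 0.2, those most like ELF3 were RNF152, a membrane ubiquitin ligase (r 0.988), BCL6, a transcriptional repressor (0.985), EFNA1, an ephrin ligand (0.973), KLRC4-KLRK1 (0.973) and NFKBIA, the inhibitor of NF-kappaB (0.963). The group means of NFKBIA ran from 8.63 to 10.87 and those of BCL6 from 6.19 to 7.95, so both had wide ranges of their own. Those most like ETS2 were MAFF (0.948), PTGER4 (0.942), HAS3 (0.937), IL1A (0.934) and PTGS2 (0.928), among them the prostaglandin receptor EP4 (PTGER4) and the inducible cyclooxygenase PTGS2. ETV5 had weaker likenesses, with CALHM5 (0.86), SYNJ2 (0.838), ING2 (0.835), KCND3 (0.818) and COBL (0.815). The group means of CALHM5 (3.71 to 4.46) and KCND3 (3.63 to 4.47) all lay below the median of all values, 6.57. Those of KLRC4-KLRK1, listed with ELF3, did so too (4.35 to 6.47).

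Of the 18 other ETS family genes, all measured, 2 rose and 0 fell at 120 min of EGF: ETV3 by 0.30 ± 0.07 and ERF by 0.26 ± 0.08, both repressors of the family. Of all probe sets 7.13% were called higher and 6.27% lower in this comparison, so 2 of 18 is near the background. The median difference of the 18 was 0.084, against 0.0079 for all probe sets. With si-miR-20a 5 of the 18 were lower (FLI1 by -0.38, GABPA by -0.35, SPIC by -0.35, SPI1 by -0.39 and ETV1) and ERF was higher, where 12.7% of all probe sets were called lower and 11.9% higher. With si-miR-671 2 were lower, ETV1 by -0.41 and SPIC by -0.31, where 7.7% of all probe sets were called lower. SPI1 is a blood cell factor that also stands among the blood markers, and its probe set was dim, with a mean at 0 min below the median of all values.

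Partners and regulators of ETS factors were measured for 18 of 22 genes. At 120 min of EGF 9 rose and 2 fell (CREBBP, a coactivator, by -0.23, and CIC, a repressor, by -0.30), where 7.13% of all probe sets were called higher and 6.27% lower. The 4 with the smallest p are feedback inhibitors of ERK signalling: SPRY4 rose by 2.30 ± 0.08, DUSP6, a phosphatase of ERK, by 1.73 ± 0.04, SPRED2 by 0.85 ± 0.07 and SPRED1 by 0.50 ± 0.05. With si-miR-20a 5 of the 18 were lower, among them SPRY2 by -0.36 and ID2 by -0.30, an inhibitor of helix-loop-helix factors that also binds ETS factors, and 0 were higher, where 12.7% of all probe sets were called lower and 11.9% higher. With si-miR-671 1 was lower, SPRY2 by -0.33, where 7.7% of all probe sets were.

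Genes reported in earlier literature as bound or regulated by ELF3 (15, all measured) did not all change in 1 direction. The list does not separate genes reported as raised by ELF3 from genes reported as lowered, so no direction was set for them. At 120 min of EGF, when ELF3 was lowest, 5 rose and 1 fell, where 7.13% of all probe sets were called higher and 6.27% lower. Among the 5 that rose, PTGS2 did so by 2.61 ± 0.07, SPRR2A by 2.16 ± 0.16, CCL20 by 1.42 ± 0.16 and SPRR1B by 0.76 ± 0.09. With si-miR-20a, where ELF3 was lower, 5 of the 15 were lower and 4 higher, where 12.7% of all probe sets were called lower and 11.9% higher. The 4 with the smallest p were LCN2, a secreted iron-siderophore carrier, at -1.54 ± 0.10 and ANGPT1 at -0.83 ± 0.06, and, in the other direction, SPRR1B, a cornified envelope protein, at 0.97 ± 0.08 and CLDN7 at 0.31 ± 0.04. With si-miR-671 5 were lower and 2 higher, where 7.7% and 6.79% of all probe sets were, with ANGPT1 at -0.69, LCN2 at -0.99, SPRR1B at 0.51 and CLDN7 at 0.24. The medians of the list were 0.14, -0.03 and -0.02 in these 3 comparisons, against 0.0079, 0.011 and -0.0003 for all probe sets. Whether ELF3 takes part in any of these changes was not tested.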

How the data were processed

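Log2 values per probe set were deposited by the authors for 24 arrays, made with Affymetrix Expression Console per the submitters' processing notes. The sources used here give neither version, summarisation nor normalization. They were used without further normalization. Of 33297 probe sets, 19460 had 1 gene symbol in the platform's gene table and were tested, 1754 had several and 12083 were not listed.

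Group means were fitted with limma 3.58.1 in R 4.3.3, over all 24 arrays (12 groups of 2), and moderated by eBayes (residual degrees of freedom 12, prior 2.57). P-values were adjusted by Benjamini-Hochberg over the 19460 tested probe sets, with calls under 0.05. An exact permutation of 2 against 2 arrays cannot go below 0.33, so single-time comparisons use the pooled spread; the number of arrays limits precision. Replicate numbers did not pair the arrays in a consistent direction, so no block was used. Over 66 pairs of groups the correlation of replicate differences ran from -0.573 to 0.55 (30 over 0.1). Replicate differences of some groups were thus related, in either direction. The fit treats the arrays as independent, so its errors do not include this.

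The genes and lists were chosen with earlier results of these data known. All 10 ETS factors were to be described, plus up to 4 called genes of each other list in each of 3 comparisons by smallest p; genes named beyond that are the remaining called members of a list, chosen after their values were seen. The 5 genes most like ELF3, ETV5 and ETS2 were ranked by Pearson correlation of group means. The fits were tested on simulated data. Alternatives were a filter on dim probe sets, trend and robust eBayes, array weights, all probe sets, quantile normalization, the mean over a gene's probe sets, a replicate block, subsets of arrays or times, and each array left out in turn; for comparisons at single times or over 2 times some were added after seeing the data. The labels' protocol also names miR-212, which was not analysed here.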

Additional observations from a re-analysis of the deposited data

How the results depend on the processing

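The counts below are of the 9 genes, and no called direction turned under any alternative run. At 120 min with si-miR-20a the count of 2 became 5 without dim probe sets, 6 with trend and robust eBayes and 1 in a fit of only the arrays compared; such fits also gave 1 in place of 2 in control and 0 in place of 3 with si-miR-671. Array weights gave 1 (ETS2, adjusted p 0.0141) in place of 0 in control at 60 min. Without the si-miR-671 arrays the means over transfections gave 0 in place of 1 at 30 min and 1 in place of 2 at 60 min. Over only 0 and 30 min, si-miR-20a against control gave 4 in place of 2, with 1 gene (ELF3) shared, and si-miR-671 against control 0 in place of 4. Over only 60 and 120 min, si-miR-20a against si-miR-671 gave 0 in place of 1. The share of all probe sets called moved under the alternatives as well and is given below. The cause of these changes was not tested.

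When 1 array was left out at a time, the counts ran from 4 to 6 at 120 min in the mean over transfections, from 2 to 2 in control, from 2 to 3 with si-miR-20a and from 2 to 4 with si-miR-671. They ran from 2 to 4 for si-miR-20a against control, with 4 without si-miR-20a replicate 2 at 120 min, and stayed at 4 for si-miR-671 against control, 1 for si-miR-20a against si-miR-671, 1 and 2 for the means at 30 and 60 min, and 0 for control at 30 and 60 min and for both differences of the response. The replicate block changed none of these counts; of the single genes it lost ELK3 over 0 and 30 min with si-miR-20a (adjusted p 0.058) and EHF at 60 min with si-miR-671 (adjusted p 0.0518). Over 1436 values of single genes under the other alternatives, 1389 stayed on the same side of the threshold, 29 lost a call and 18 gained one. Most of the 1436 values were not called in the main fit, so the 1389 do not measure how stable the calls were. Of values called in the main fit or the alternative, 0 turned. Direction was not compared for values called in neither, and the F tests have none.

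Over the same alternatives the share of all probe sets called ran from 6.46% to 22.8% at 120 min in the mean over transfections, from 0.2% to 5.33% in control, from 12% to 37.6% for si-miR-20a against control, from 2.81% to 23.8% for si-miR-671 against control and from 1.13% to 10.4% between these transfections. In the mean over transfections it ran from 0.401% to 1.13% at 30 min and from 1.36% to 4.55% at 60 min. Signal over background was not among the deposited values; ETV4, ETV5, ELF3 at 120 min (all 6 arrays) and some arrays of ELF4 lay near or below the median of all values.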
